A study of Homo sapiens with 6 samples.

Results

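The 39 genes described here encode glucose transporters, the enzymes of glycolysis and their PFKFB regulators, the enzymes and carriers of lactate, the regulators of pyruvate dehydrogenase, 3 enzymes of the pentose phosphate pathway, and components and targets of the hypoxia response. The list is one of gene symbols, drawn up with earlier results of these data known, and all 39 were found among the 23152 genes of the count table. RNA was sequenced from T24 cells, an established human bladder cancer cell line, in 3 samples labelled vector and 3 samples labelled oeRNF112. RNF112 is an E3 ubiquitin ligase, and oe stands for overexpression. Both groups were grown in RPMI 1640 with serum under 5% CO2, and no lowered oxygen was described for either. The transfection protocol in the labels speaks of siRNA, whereas the study describes RNF112 plasmids and a stably overexpressing T24 line, and which of these was sequenced is not given in the sources used here. Nothing states that the replicates were separate cultures, so the p-values measure the spread between these samples, which may be technical.

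Glycolysis splits glucose into pyruvate, and in many tumor cells much of the pyruvate is turned into lactate and exported even when oxygen is present. The pentose phosphate pathway branches off at glucose 6-phosphate and yields NADPH and ribose 5-phosphate for lipid and nucleotide synthesis. When oxygen is low, the prolyl hydroxylases of the EGLN family no longer mark HIF1A for degradation, and the HIF transcription factors raise many glycolytic genes together with targets such as VEGFA, CA9 and NDRG1. MYC, whose turnover by RNF112 was the subject of the study, is also known to raise many genes of glycolysis.

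The total counts were between 40029547 and 41259569 per sample. The counts of RNF112 were 27, 19 and 24 in vector and 29753, 36963 and 31712 in oeRNF112, and the latter may hold reads from the introduced construct. Levels of a gene across samples are given as normalized CPM, which are counts scaled to a common library size with edgeR's TMM factors. Levels of different genes are compared as RPKM, which also divides by gene length. KRT7, KRT8, KRT18 and KRT19 were abundant, as was VIM, while CDH1, KRT13, KRT20, UPK2 and UPK3A, which mark epithelium or differentiated urothelium, had at most 7 counts in any sample. On the same list of epithelial and urothelial markers, UPK1A held 4 to 20 counts, while PPARG, ELF3 and GATA3 were expressed and did not pass the test. KRT7, KRT18 and FOXA1 of that list fell (0.718-, 0.703- and 0.474-fold), and EPCAM rose (1.79-fold). Of the 4 mesenchymal markers, only CDH2 passed the test, and it fell (0.738-fold). VIM, FN1 and ZEB1 had log2 fold changes of -0.21, -0.37 and 0.29. The summed leukocyte markers were at 25.6 to 27.3 CPM in vector and at 55.1 to 68.2 CPM in oeRNF112. Most of these reads came from CD68, a lysosomal protein that is not restricted to leukocytes, and PTPRC, which defines leukocytes, had 24 to 54 counts per sample. The summed fibroblast markers were at 9.04 to 11.7 CPM and 11.96 to 12.7 CPM, and the endothelial markers held 5 to 24 counts per sample. Their part in the results was not tested. In bulk RNA of this kind, fewer cells of a type and less RNA per cell cannot be told apart.

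In oeRNF112 samples some of these genes were higher and others lower. Of the 39 genes, all of which passed edgeR's filter on low counts, 6 rose and 5 fell at an adjusted p under 0.05. Here and for every adjusted p below, this is edgeR's quasi-likelihood test with Benjamini-Hochberg adjustment over 14467 genes, unless another fit is named. SE stands for an approximate standard error of the log2 fold change. It was derived as the size of that change over the square root of the test's F statistic. The genes that rose were NDRG1, EGLN3, ENO2, HK2, SLC2A3 and PFKFB3. The genes that fell were TKT, PKM, LDHB, PFKL and PDK2. Among all genes tested, 18.1% passed the same threshold, 9.97% higher and 8.14% lower. On the log2 scale the members had a median change of -0.06, with quartiles of -0.19 and 0.14, against 0.00 for all genes. In 17 of the 39 genes the log2 fold change was above 0, and in 22 it was below 0. In normalized CPM, the groups stood apart without overlap in 14 of the 39 genes, 7 higher and 7 lower, where 36.8% of all genes tested did not overlap. When library totals replaced the TMM scaling, the median of all genes moved to 0.10. The members then divided into 7 that rose and 2 that fell, and all genes into 2020 higher and 659 lower. In limma on log2(RPKM + 1), which also rests on library totals, 6 members rose and 1 fell. The number of members past the threshold was 5 without vector replicate 1, 5 without vector replicate 3, 5 without oeRNF112 replicate 1 and 6 without oeRNF112 replicate 3. NDRG1, ENO2, HK2 and TKT passed in each of 15 alternatives.

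**Figure D1:**
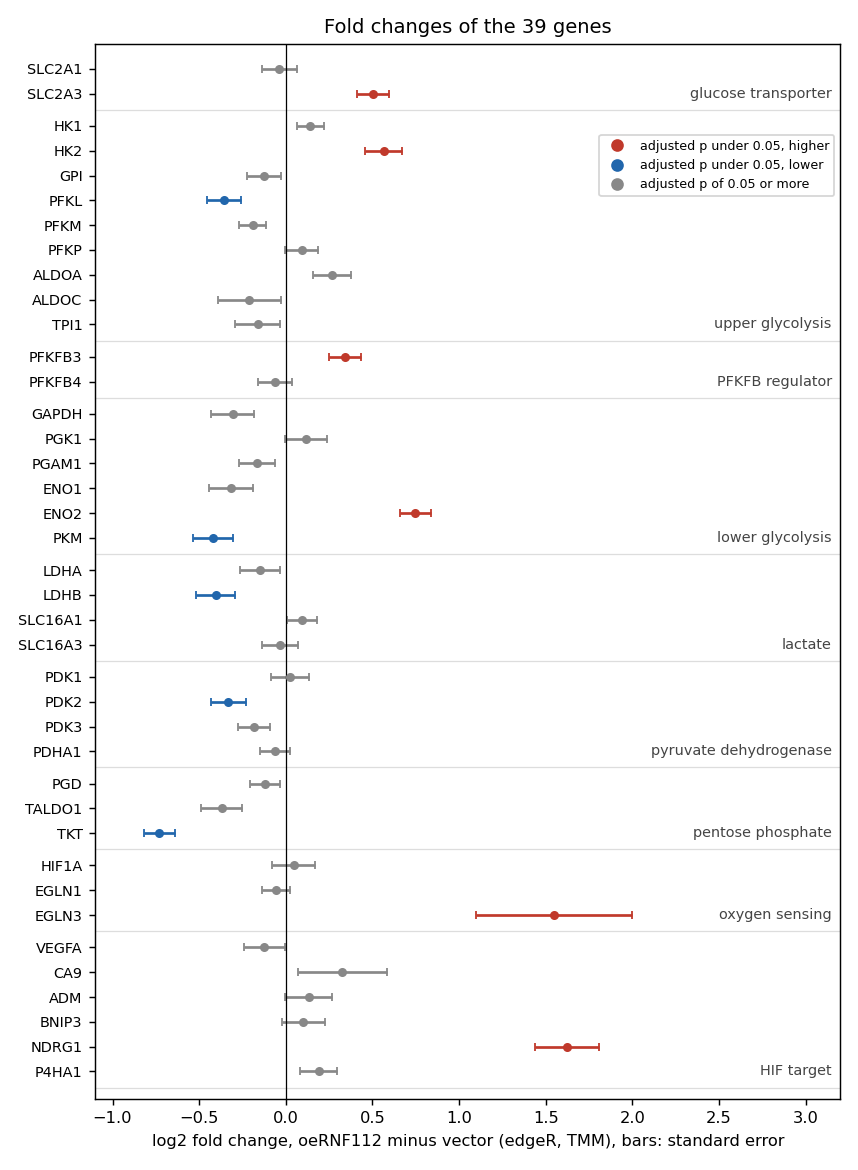
Log2 fold change of each of the 39 genes, oeRNF112 minus vector (x axis, log2 units), grouped by role from top to bottom. Points are edgeR estimates, bars are the SE derived from the F statistic, and red and blue mark an adjusted p under 0.05. The genes past the threshold lie from -0.73 (TKT) to 1.62 (NDRG1), and most others lie near 0.

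The promoters of 4 enzymes are printed, so that HK2 and ENO2, which rose, can be set beside TKT and PKM, which fell. Each is the stretch of 250 bases before the annotated start, on the gene's own strand, from RefSeq on GRCh38.p14. Capitals mark the core of the hypoxia response element, searched as ACGTG or GCGTG on both strands, so that matches on the other strand read CACGT or CACGC. The first of these overlaps the E-box CACGTG, which MYC and other factors bind. HK2, which has 2 annotated starts, is shown for the start whose upstream bases lie at chr2:74833877-74834126 on the + strand. ENO2 lies at chr12:6914330-6914579 on the + strand. TKT lies at chr3:53256023-53256272 on the - strand, and PKM at chr15:72231191-72231440 on the - strand. The start in the table for PKM is not its outermost one, so that this stretch lies within the bounds of the gene given further on.
HK2: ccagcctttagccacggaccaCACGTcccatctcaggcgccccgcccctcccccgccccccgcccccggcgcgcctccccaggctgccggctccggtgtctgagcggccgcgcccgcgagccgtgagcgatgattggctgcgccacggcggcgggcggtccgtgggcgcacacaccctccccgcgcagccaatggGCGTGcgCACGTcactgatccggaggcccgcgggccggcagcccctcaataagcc
ENO2: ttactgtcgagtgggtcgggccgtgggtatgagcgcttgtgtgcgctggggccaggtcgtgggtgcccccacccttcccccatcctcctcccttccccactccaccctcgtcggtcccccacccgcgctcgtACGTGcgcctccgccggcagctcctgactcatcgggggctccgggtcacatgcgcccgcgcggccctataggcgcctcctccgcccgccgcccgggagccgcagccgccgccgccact
TKT: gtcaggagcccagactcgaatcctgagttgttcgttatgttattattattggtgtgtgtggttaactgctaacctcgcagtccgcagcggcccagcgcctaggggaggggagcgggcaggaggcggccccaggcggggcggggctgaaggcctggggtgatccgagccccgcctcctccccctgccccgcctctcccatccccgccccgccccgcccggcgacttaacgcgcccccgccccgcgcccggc
PKM: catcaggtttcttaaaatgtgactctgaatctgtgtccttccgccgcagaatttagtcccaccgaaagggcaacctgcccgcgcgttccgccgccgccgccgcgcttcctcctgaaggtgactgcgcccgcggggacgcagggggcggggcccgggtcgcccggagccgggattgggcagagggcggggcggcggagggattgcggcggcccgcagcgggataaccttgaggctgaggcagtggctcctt
The core was found 3 times in the HK2 stretch and 1 time in the ENO2 stretch, and it was not found in the TKT and PKM stretches. No E-box lay in any of the 4 stretches. Over the 2 annotated starts of HK2 together, the core was found 9 times and the E-box 2 times. The other genes past the threshold with a promoter in the table did not follow this split. The core was found upstream of PFKFB3, which rose, but not upstream of EGLN3, which also rose. It was found upstream of PFKL and of 1 of the 3 annotated starts of PDK2, both of which fell, and not upstream of LDHB, which fell. The table of promoters matched 35 of the 39 genes, with 64 promoters. The core was present in 36 of these 64 promoters (56.25%), against 15172 of 35116 promoters of all genes (43.21%). The E-box was present in 12.5% of the members' promoters and in 6.34% of all. The promoters of all genes include those of genes not expressed in T24 cells, whereas all 39 members passed the filter on low counts. A gene counts once per annotated start, and HK1 and PFKM have 7 each. These shares are therefore unlike sets, and enrichment was not tested. A match is a string of letters in this window and was not tested for binding.

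Of the 2 glucose transporters, SLC2A3 (GLUT3), a transporter of high affinity, rose, and SLC2A1 (GLUT1), the widespread basal transporter, did not pass the test. SLC2A3 (GRCh38 chr12:7919230-7936187) was at 43.4, 42.0 and 37.1 normalized CPM in the vector samples and at 60.1, 55.3 and 58.1 in the oeRNF112 samples. The groups did not overlap. This amounted to a log2 fold change of 0.50 (SE 0.094, adjusted p = 0.00644). SLC2A1 was at 174, 183 and 183 normalized CPM in vector and at 184, 191 and 151 in oeRNF112. The groups overlapped, and oeRNF112 replicate 3 was the lowest of the 6 samples. The fitted log2 fold change was -0.04 (SE 0.101, adjusted p = 0.824), and it turned positive under library totals. Per length, SLC2A1 stayed the more abundant of the pair, at 53.4 ± 5.86 RPKM (SD, n = 3) in oeRNF112 against 15.6 ± 0.840 RPKM for SLC2A3. SLC2A14, a close copy of SLC2A3, held at most 2 counts per sample, so how the counting divided shared reads between them cannot be told from the table.

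The upper steps of glycolysis held 9 genes, of which 1 rose and 1 fell. HK2 (chr2:74834127-74893359), the inducible hexokinase of tumor cells that phosphorylates glucose, was at 60.9, 69.0 and 52.4 normalized CPM in vector and at 90.6, 90.2 and 88.7 in oeRNF112. The oeRNF112 samples lay close together and above every vector sample. edgeR fitted a log2 fold change of 0.56 (SE 0.106, adjusted p = 0.00673), a 1.48-fold difference. HK1, the constitutive hexokinase, was at 412 ± 10.5 normalized CPM in vector and 454 ± 9.84 in oeRNF112 (SD, n = 3), without overlap. HK1 did not pass the test (log2 fold change 0.14, adjusted p = 0.237). It did pass in 3 of 15 alternatives, though in no fit with a sample left out. PFKL (chr21:44300053-44327373), the liver isozyme of phosphofructokinase, was at 173, 165 and 181 normalized CPM in vector and at 139, 148 and 118 in oeRNF112. Every oeRNF112 sample lay below every vector sample. On the log2 scale the difference was -0.36 (SE 0.099, adjusted p = 0.0337), and its adjusted p was 0.124 without vector replicate 1, 0.0796 without vector replicate 3, 0.0962 without oeRNF112 replicate 1 and 0.121 without oeRNF112 replicate 3. Under library totals its adjusted p was 0.0743.

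The other phosphofructokinase isozymes did not pass the test. PFKM, the muscle isozyme, had a log2 fold change of -0.19 (adjusted p = 0.116), with no overlap between the groups. PFKP, the platelet isozyme and the most abundant of the 3 per length in T24 cells (82.7 ± 2.60 RPKM in vector), had a log2 fold change of 0.09. GPI, which converts glucose 6-phosphate to fructose 6-phosphate, had a log2 fold change of -0.12. TPI1, which interconverts the triose phosphates, was at 1667, 1430.5 and 1702 normalized CPM in vector and at 1478, 1634 and 1180.1 in oeRNF112. These ranges overlapped, and its log2 fold change was -0.16 (SE 0.130, adjusted p = 0.416).

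The aldolases cleave fructose 1,6-bisphosphate. ALDOC had a log2 fold change of -0.21 (SE 0.181, adjusted p = 0.450). ALDOA, usually among the most abundant transcripts of a tumor cell, was listed with 649 to 940 counts, or 7.91 ± 0.623 RPKM in vector. In RefSeq, ALDOA (chr16:30064279-30070420) shares 6136 of its 6142 bases, introns included, with LOC112694756, which held 116 to 177 counts. The level of ALDOA is uncertain for this reason. The test gave a log2 fold change of 0.27 (adjusted p = 0.126), and 0.28 (adjusted p = 0.0960) with both rows summed, an alternative chosen after the data had been seen. Under library totals ALDOA passed, with a log2 fold change of 0.36 and an adjusted p of 0.0411.

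The PFKFB enzymes make and break fructose 2,6-bisphosphate, the main activator of phosphofructokinase. PFKFB3 (chr10:6144921-6326637), whose kinase activity dominates, was at 89.6, 103 and 85.5 normalized CPM in vector and at 119.8, 119 and 113 in oeRNF112. The groups did not overlap, with oeRNF112 above. The log2 difference between the groups was 0.34 (SE 0.093, adjusted p = 0.0313). Without vector replicate 2 the adjusted p was 0.00954, and without any of the other 5 samples in turn it was between 0.0610 and 0.127. The highest of these, 0.127, came without vector replicate 1. PFKFB4 was at 57.0 ± 2.30 normalized CPM in vector and 54.5 ± 5.43 in oeRNF112, with a log2 fold change of -0.07 that turned positive under library totals.

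In the lower steps, from GAPDH to pyruvate kinase, 1 of 6 genes rose and 1 fell, namely ENO2 and PKM. ENO2 (chr12:6914580-6923697), the gamma or neuronal enolase, was at 122, 127 and 122 normalized CPM in vector and at 216, 220.1 and 189 in oeRNF112. The groups stood far apart relative to the spread within each. This amounted to a log2 fold change of 0.75 (SE 0.088, adjusted p = 6.84e-04), a 1.68-fold rise. ENO1, the enolase that most cells use, was at 5038, 4476 and 5187 normalized CPM in vector and at 3936, 4558 and 3318 in oeRNF112. Its oeRNF112 replicate 2 lay above vector replicate 2, and its log2 fold change of -0.32 did not pass the test (SE 0.128, adjusted p = 0.117). PKM (chr15:72199029-72231591), which makes pyruvate, was at 4542, 4237 and 4596 normalized CPM in vector and at 3325, 3763 and 2901 in oeRNF112. Every oeRNF112 sample was below every vector sample. The fitted log2 fold change was -0.42 (SE 0.114, adjusted p = 0.0306), a 0.747-fold level. Its adjusted p was 0.125 without vector replicate 1, 0.0851 without vector replicate 3, 0.116 without oeRNF112 replicate 1 and 0.0858 without oeRNF112 replicate 3.

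GAPDH, the most abundant of the 39 genes per length, was at 8014, 7063 and 8208 normalized CPM in vector and at 6157, 7212 and 5453 in oeRNF112. The groups overlapped through oeRNF112 replicate 2 and vector replicate 2. edgeR fitted a log2 fold change of -0.31 (SE 0.125, adjusted p = 0.117). Without oeRNF112 replicate 2, GAPDH and ENO1 passed the threshold, with adjusted p of 0.0365 and 0.0362. Without any other single sample neither passed, with adjusted p of 0.0584 to 0.314 for GAPDH and of 0.0588 to 0.307 for ENO1. PGK1, the first step that yields ATP, had a log2 fold change of 0.12, and PGAM1, phosphoglycerate mutase, of -0.17, neither past the test. GENCODE release 29 annotates 62 pseudogenes named for GAPDH, 13 for PGAM1, 6 for LDHA, 5 for PKM and 4 for ENO1, none of which is a row of the count table. Reads that such copies share with the parent gene were not separated here. PGAM4, a close copy of PGAM1, held 374 to 460 counts.

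**Figure D2:**
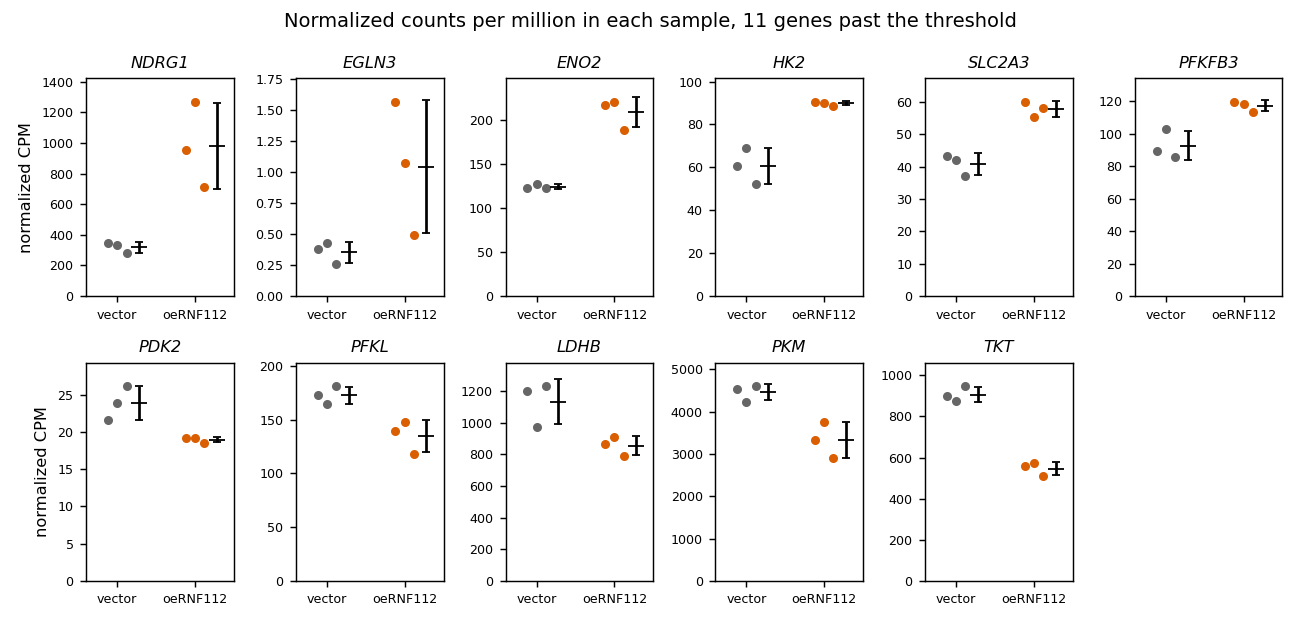
Normalized CPM (y axis, from 0) in each of the 3 vector and 3 oeRNF112 samples for the 11 genes past the threshold; dots are samples in replicate order, and the bar beside them is the mean with the SD. No gene shows overlap between its groups, and the oeRNF112 samples of NDRG1 spread from 711 to 1269.

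Of the 4 lactate genes, only LDHB passed the test, and it fell. LDHB (chr12:21635342-21657842), the lactate dehydrogenase subunit that favors pyruvate formation, was at 1199, 970.2 and 1229 normalized CPM in vector and at 865, 909 and 792 in oeRNF112. The highest oeRNF112 sample was below vector replicate 2, the lowest of its group. On the log2 scale the difference was -0.41 (SE 0.111, adjusted p = 0.0325). Its adjusted p was 0.146 without vector replicate 1, 0.0986 without vector replicate 3, 0.107 without oeRNF112 replicate 1 and 0.103 without oeRNF112 replicate 3, and 0.0550 under library totals. LDHA, the subunit that favors lactate formation, was at 3721, 3294 and 3408 normalized CPM in vector and at 3174, 3513 and 2705 in oeRNF112. Its groups overlapped, with a log2 fold change of -0.15 (SE 0.116, adjusted p = 0.394). The lactate carriers SLC16A1 (MCT1) and SLC16A3 (MCT4) had log2 fold changes of 0.09 and -0.04, with adjusted p of 0.493 and 0.840, and that of SLC16A3 turned positive under library totals.

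The pyruvate dehydrogenase kinases switch off the entry of pyruvate into the mitochondrial citrate cycle. PDK2 (chr17:50094737-50112152) was at 21.7, 23.9 and 26.1 normalized CPM in vector and at 19.2, 19.2 and 18.6 in oeRNF112. The oeRNF112 samples lay close together below the vector samples. The test gave a log2 fold change of -0.33 (SE 0.101, adjusted p = 0.0472). This call was the least firm of the 11, since the adjusted p was between 0.0641 and 0.138 when any of the 6 samples was left out. The extremes came without vector replicate 2 and without oeRNF112 replicate 3, and it was 0.127 under library totals. PDK1, the kinase best known as a HIF target, was at 72.0 ± 9.73 normalized CPM in vector and 73.2 ± 4.42 in oeRNF112 (SD, n = 3), with a log2 fold change of 0.02 (adjusted p = 0.906). PDK3 had a log2 fold change of -0.18 (adjusted p = 0.194), with no overlap between the groups. PDHA1, the catalytic subunit that these kinases act on, was at 131, 122 and 140.5 normalized CPM in vector and at 130.2, 126 and 119.8 in oeRNF112. The groups overlapped, and its log2 fold change of -0.06 (adjusted p = 0.637) turned positive under library totals.

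All 3 pentose phosphate genes had a log2 fold change below 0, and TKT fell. TKT (chr3:53224712-53256022), transketolase, links the pathway back to glycolysis in its nonoxidative arm. It was at 901, 873 and 946 normalized CPM in vector and at 557, 573 and 510.4 in oeRNF112. The spread within each group was small beside the gap between them. The log2 difference between the groups was -0.73 (SE 0.088, adjusted p = 7.54e-04), a 0.603-fold level. TALDO1, transaldolase of the same arm, was at 304, 257 and 339.7 normalized CPM in vector and at 225, 260.4 and 212 in oeRNF112. Vector replicate 2 lay just below oeRNF112 replicate 2. This amounted to a log2 fold change of -0.37 (SE 0.120, adjusted p = 0.0578). The adjusted p of TALDO1 was 0.0101 without vector replicate 2 and 0.0360 without oeRNF112 replicate 2. Without any other single sample it was between 0.157 and 0.181. PGD, of the oxidative arm that yields NADPH, had a log2 fold change of -0.12 (SE 0.087, adjusted p = 0.361).

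Among the oxygen sensing genes, EGLN3 rose from a low level, and HIF1A and EGLN1 did not pass the test. HIF1A, the oxygen-regulated HIF subunit, was at 279.6, 295 and 224 normalized CPM in vector and at 259.8, 252 and 312 in oeRNF112. The groups overlapped, and its log2 fold change was 0.04 (SE 0.123, adjusted p = 0.831). This value was -0.06 without vector replicate 3 and -0.06 without oeRNF112 replicate 3. EGLN1 (PHD2), the main HIF hydroxylase, had a log2 fold change of -0.06 (adjusted p = 0.669), which turned positive under library totals. EGLN3 (PHD3, chr14:33924227-33951074), a hydroxylase gene that is itself induced by HIF, had 15, 17 and 10 counts in vector and 65, 44 and 21 in oeRNF112. In normalized CPM these were 0.379, 0.425 and 0.259 against 1.57, 1.07 and 0.496. The lowest oeRNF112 sample, replicate 3, lay just above the highest vector sample. The fitted log2 fold change was 1.55 (SE 0.447, adjusted p = 0.0393). Its adjusted p was 0.115 without vector replicate 1, 0.110 without vector replicate 3, 0.161 without oeRNF112 replicate 1 and 0.0632 without oeRNF112 replicate 2. The HIF1A locus also holds 3 antisense genes in the table, and the strand setting of the counting is not given in the sources used here.

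Of the 6 HIF targets, NDRG1 alone passed the test, and it rose. NDRG1, a stress-responsive gene that is also repressed by MYC family proteins, was at 346, 331 and 278 normalized CPM in vector and at 955, 1269 and 711 in oeRNF112. The lowest oeRNF112 sample was above every vector sample, and oeRNF112 replicates 2 and 3 differed widely. edgeR fitted a log2 fold change of 1.62 (SE 0.186, adjusted p = 6.23e-04), a 3.07-fold rise and the largest of the 39. BNIP3, a mitophagy receptor and the most abundant of the targets per length in vector, was at 219, 188 and 209 normalized CPM in vector and at 214, 261 and 185 in oeRNF112. Its ranges overlapped, with a log2 fold change of 0.10 (SE 0.124, adjusted p = 0.608) that was -0.03 without oeRNF112 replicate 2. In oeRNF112 NDRG1 had the higher level per length, at 202 ± 54.5 RPKM against 147 ± 22.8 RPKM for BNIP3 (SD, n = 3). GENCODE annotates 39 pseudogenes of BNIP3, so its reads are uncertain too. CA9, the carbonic anhydrase often used as a hypoxia marker, had 155 to 199 counts in vector and 140 to 299 in oeRNF112. Its lowest and highest samples were both in oeRNF112, and its log2 fold change was 0.33 (SE 0.259, adjusted p = 0.409). VEGFA, the angiogenic growth factor, had a log2 fold change of -0.12 (adjusted p = 0.491). ADM, adrenomedullin, and P4HA1, a collagen prolyl hydroxylase, had log2 fold changes of 0.13 and 0.19 (adjusted p of 0.534 and 0.246).

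Because several roles are filled by more than 1 isozyme, the balance within each pair was taken as the log2 ratio of their RPKM in the same sample, which no sample-wide scaling can alter. With 3 samples against 3, the exact two-sided permutation test cannot give a p below 0.1, so these ratios are described by size and overlap. In 9 of the 11 pairs the groups did not overlap (exact permutation p = 0.1 in each), where 38.3% of all pairs of tested genes with an RPKM above 0 in each sample did not overlap. The 11 pairs are not independent, since PFKP and PDK3 each enter more than 1 of them. Many of the pairs without overlap hold a gene that passed the test in these same samples (SLC2A3, HK2, PFKL, PFKFB3, ENO2 or LDHB). Their ratios partly restate those calls and are no separate support for them. The share among all pairs of genes is given for scale only. The ratio of ENO1 to ENO2 was 29.9, 25.5 and 30.8 in vector and 13.2, 15.0 and 12.8 in oeRNF112, a difference of -1.07 on the log2 scale. Every oeRNF112 sample had a lower ratio than every vector sample, though ENO1 remained far more abundant than ENO2. A shift that depends on the level of a gene can alter such a ratio. ENO1 had a mean above 500 RPKM and ENO2 did not. Of the 109 genes of at least 500 RPKM, 103 had a log2 fold change below 0, with a median of -0.35. The part of this in the ENO1 to ENO2 ratio was not tested. The ratio of SLC2A1 to SLC2A3 differed by -0.55, that of PFKL to PFKP by -0.45, that of HK1 to HK2 by -0.43 and that of PFKM to PFKP by -0.28 on the log2 scale. In these pairs the balance moved toward SLC2A3, PFKP and HK2. The ratio of PFKFB3 to PFKFB4 differed by 0.41, that of LDHA to LDHB by 0.24 and that of PDK1 to PDK3 by 0.21. The ratio of ALDOA to ALDOC differed by 0.50, with the limit on ALDOA given above. The ratios of SLC16A1 to SLC16A3 (0.13, exact permutation p = 0.6) and of PDK2 to PDK3 (-0.15, exact permutation p = 0.4) overlapped between the groups.

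**Figure D3:**
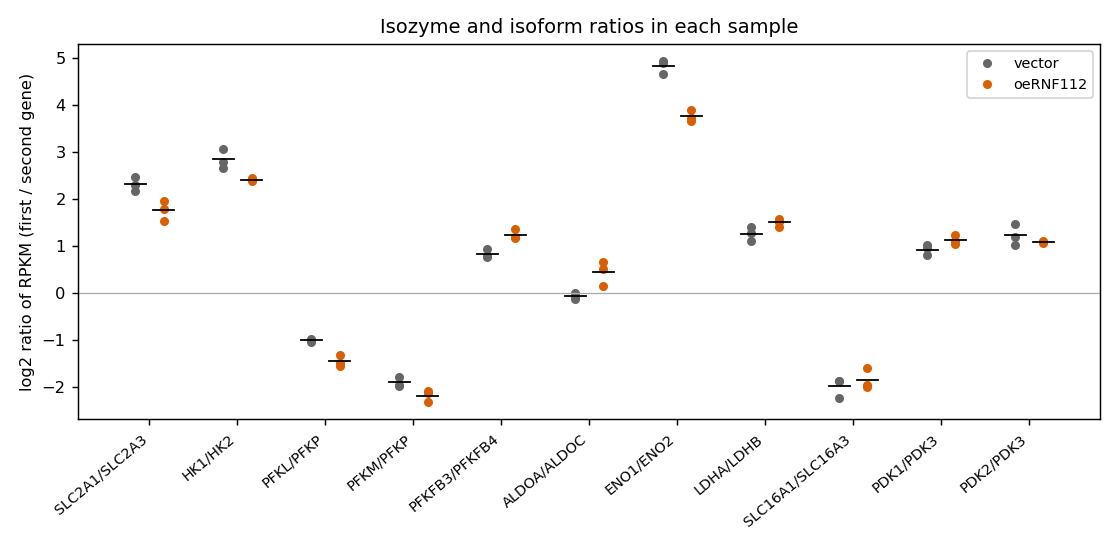
Log2 ratio of the RPKM of the first to the second gene (y axis) for 11 isozyme pairs in each sample; dots are samples and the short lines are group means. ENO1/ENO2 shows the widest gap, -1.07 on the log2 scale, and SLC16A1/SLC16A3 and PDK2/PDK3 overlap.

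The direction of the changes differed with the level of the genes. TPI1, GAPDH, PGAM1, ENO1, PKM, LDHA and LDHB had a mean of at least 500 RPKM over the 6 samples, a limit chosen after the data had been seen. All 7 had a log2 fold change below 0, with a median of -0.31, and 2 of them, PKM and LDHB, fell. Most genes of that level behaved in the same way. Among all 109 genes with at least 500 RPKM, 103 had a log2 fold change below 0, the median was -0.35, and 36.7% passed the threshold (33.9% lower). The 32 other members had a median of 0.03, and 6 of them rose and 3 fell. Members took 3.13% ± 0.125 of all counts in vector and 2.92% ± 0.326 in oeRNF112 (SD, n = 3). GAPDH, ENO1 and PKM together took 1.69%, 1.56% and 1.72% in vector and 1.39%, 1.57% and 1.22% in oeRNF112. These shares overlapped through oeRNF112 replicate 2 and vector replicate 2.

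**Figure D4:**
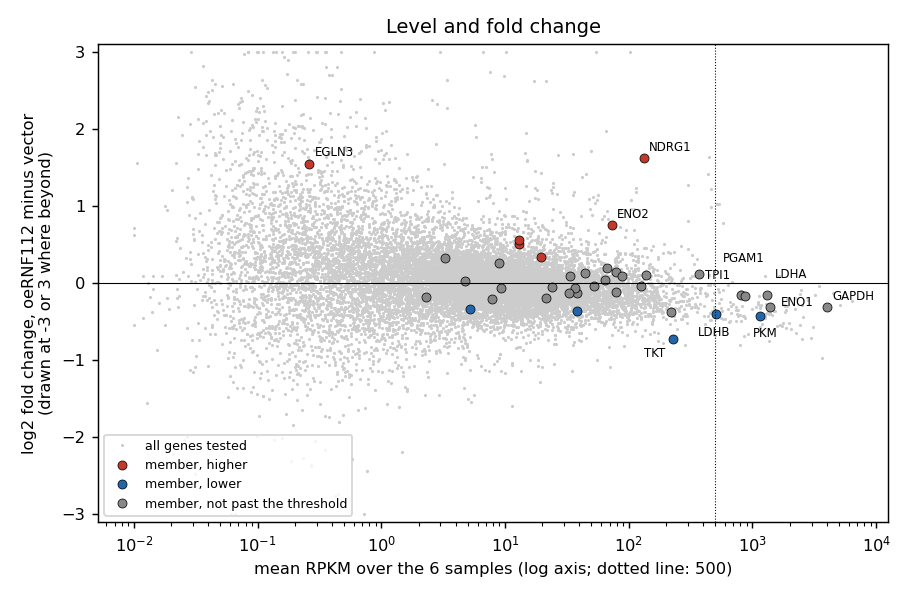
Log2 fold change (y axis, oeRNF112 minus vector) against the mean RPKM over the 6 samples (x axis, log scale) for all 14467 genes tested in gray and the 39 members in color; the dotted line is at 500 RPKM. The 7 members right of the line lie below 0, and NDRG1, ENO2 and EGLN3 lie above the bulk of genes of their level.

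The samples of the oeRNF112 group were not alike in these genes. Replicate 3 was the lowest oeRNF112 sample in 34 of the 39 genes, in 15 of the 15 enzymes of the upper and lower steps and in 6 of the 6 HIF targets. Replicate 2 was the highest oeRNF112 sample in 26 of the 39 genes and in 14 of those 15 enzymes. For the 15 enzymes, the log2 level of each gene was set against its mean over the vector group, and the median was taken per sample. By this measure the vector samples were at 0.04, -0.07 and 0.03 and the oeRNF112 samples at -0.11, 0.03 and -0.32. The choice of reference keeps the vector values near 0. Replicate 2 of oeRNF112 lay within the vector range, and replicate 3 lay lowest of all. Over all genes tested the same median was 0.004, -0.005 and 0.009 in the oeRNF112 samples, values that TMM scaling keeps near 0. How often each replicate was lowest or highest among all genes was not counted, so this order may not be particular to the members. Whether depth or handling had a part in this was not tested, and no label gives a batch or date.

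A list of 59 further genes of glycolysis, gluconeogenesis, glycogen, pyruvate and the pentose phosphate pathway also held genes that rose and genes that fell. Of these, 41 were tested, 6 rose and 5 fell, beside the 18.1% of all genes, and the median log2 fold change was -0.04. Under library totals 7 rose and 1 fell, and in limma on log2(RPKM + 1) 4 rose and 1 fell. PGM1, which links glycogen to glucose 6-phosphate, fell from 163, 153 and 156 to 112, 114 and 98.6 normalized CPM. The groups were well separated, and edgeR put the log2 fold change at -0.54 (SE 0.088, adjusted p = 0.00335). PGM2, a phosphopentomutase, rose by a log2 fold change of 0.34 (adjusted p = 0.0198). HKDC1, a hexokinase-like gene, had 35, 14 and 17 counts in vector and 59, 77 and 95 in oeRNF112, and rose by 1.72 on the log2 scale (SE 0.358, adjusted p = 0.0105). PDK4, the kinase of fasting and fatty acid use, had 57, 82 and 48 counts and then 134, 120 and 174, and rose by 1.11 (SE 0.235, adjusted p = 0.0111). Without vector replicate 1 the adjusted p of PDK4 was 0.0577. PCK2, mitochondrial phosphoenolpyruvate carboxykinase, rose by 0.40 (adjusted p = 0.0253). Neither PGM2 nor PCK2 passed without vector replicate 1 or without any single oeRNF112 sample, with adjusted p of 0.0524 to 0.0685 and of 0.0521 to 0.0871. The genes that fell beside PGM1 included SLC2A6, GYS1 and PDHB, named after their values had been seen. The number past the threshold on this list was 2 without vector replicate 1 and 16 without vector replicate 2.

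A list of 43 further hypoxia genes held more rises than falls. Of these, 40 were tested, 12 rose and 1 fell, where 9.97% of all genes were higher and 8.14% lower. The median log2 fold change was 0.14, with 24 genes above 0 and 16 below 0. The groups did not overlap in 22 of the 40, 16 higher and 6 lower, where 36.8% of all genes tested did not overlap. ANGPTL4, a secreted inhibitor of lipoprotein lipase that PPAR factors also induce, went from 10.1, 8.80 and 8.40 to 57.7, 65.3 and 45.1 normalized CPM. On the log2 scale the difference was 2.62 (SE 0.149, adjusted p = 1.54e-05). The groups were far apart. The stanniocalcins STC1 and STC2, secreted glycoproteins, rose by log2 fold changes of 1.61 and 0.83 (adjusted p of 2.57e-04 and 2.52e-04). ZNF395 was the gene that fell, with a log2 fold change of -0.41 (adjusted p = 0.0159), and it is named after its value had been seen. The number past the threshold was 8 without vector replicate 1 and 16 without vector replicate 2.

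**Figure D5:**
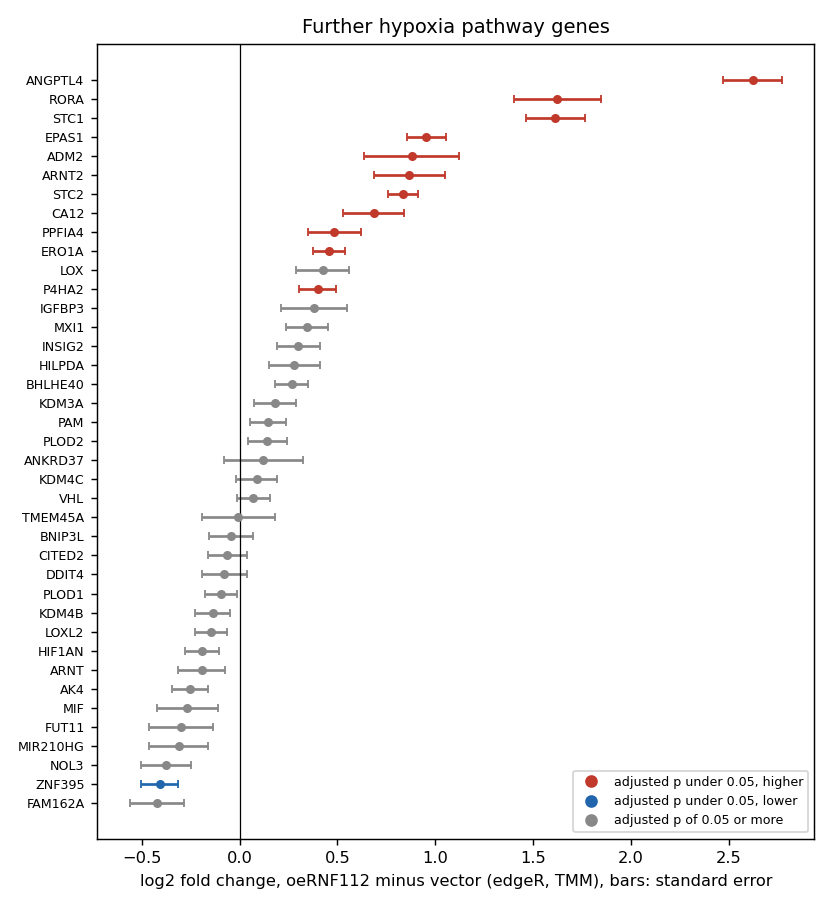
Log2 fold change (x axis, oeRNF112 minus vector) of 39 of the 40 further hypoxia genes tested, ordered by size. Points are edgeR estimates, bars are the SE derived from the F statistic, and red or blue marks an adjusted p under 0.05. Red points reach from 0.40 to 2.62 (ANGPTL4), and ZNF395 is the blue point.

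EPAS1, which encodes HIF2A, the second oxygen-regulated HIF subunit, rose while HIF1A did not pass the test. EPAS1 was at 91.1, 101 and 78.2 normalized CPM in vector and at 177, 172 and 174 in oeRNF112. The oeRNF112 samples lay close together, above every vector sample. The test gave a log2 fold change of 0.95 (SE 0.101, adjusted p = 4.12e-04), and it passed in each of 15 alternatives. Per length, the ratio of EPAS1 to HIF1A was 0.251, 0.263 and 0.269 in vector and 0.525, 0.525 and 0.430 in oeRNF112. The ratio was computed after the data had been seen and differed by 0.91 on the log2 scale (exact two-sided permutation p = 0.1, the smallest that 3 against 3 allows).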

How the data were processed

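T24 cells in 3 vector and 3 oeRNF112 samples were sequenced with a stranded mRNA kit. The authors deposited raw counts of reads per gene and RPKM values. The submitters' processing notes name Trimmomatic 0.36, featureCounts, Subread 1.5.1 and the build GRCh38. The aligner, the annotation and the strand setting are not given in the sources used here. In each of the 20637 genes checked, RPKM was the count over library total and a single gene length (relative tolerance 0.001).

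Counts were tested with edgeR 4.0.16 in R 4.3.3 (filter on low counts, TMM factors, quasi-likelihood test, Benjamini-Hochberg adjustment, threshold 0.05). Alternatives used DESeq2 1.42.0, other size factors or filters, a replicate block, fits without each of the samples, and limma 3.58.1 on log2(RPKM + pseudocount), with pseudocounts of 1 and 0.1. Isozyme ratios were compared with an exact two-sided permutation test. Promoters and coordinates came from RefSeq (GRCh38.p14) and pseudogenes from GENCODE release 29. Total counts were between 40029547 and 41259569 per sample, a depth at which counting error matters for genes with few reads. The scripts were tested on simulated data.

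The members and lists were chosen with earlier results of these data known. Values per sample are given for RNF112, for members past the threshold and for the member of each role with the highest mean RPKM, and at most 5 genes with the smallest p-values are named from each further list. Genes named beyond this rule, such as CD68, ENO1 and TALDO1, were singled out with their values known. The metabolomics and proteomics tables of the study were not used here. The results of some genes on the further lists are not reported here.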

Additional observations from a re-analysis of the deposited data

How the results depend on the processing

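Over 15 alternatives, 584 values of the 39 genes were recomputed. Of these, 491 kept their direction and their side of the threshold, 53 lost the call, 11 gained it and 29 changed sign. No gene that passed the test changed sign. Whether replicate numbers pair the samples is not given in the sources used here. Same-numbered samples deviated oppositely from their group means (correlations of -0.18, -0.54 and -0.45 over genes). Those of differently numbered samples lay between -0.0998 and 0.530. Deviations from a mean of 3 samples constrain each other, so these correlations cannot show how the samples were prepared. With a replicate block, 876 genes differed, against 2620 without it, and 4 of the 39 genes (HK2, ENO2, TKT and NDRG1), 3 further glycolysis and pentose phosphate genes and 8 further hypoxia genes passed. SLC2A3 had an adjusted p of 0.0610 under the block. With each sample left out in turn, 1061 to 3387 genes differed, 5 to 11 of the 39 genes passed, 2 to 16 of the further glycolysis genes and 8 to 16 of the further hypoxia genes. The limma fits on RPKM with a pseudocount of 1 and of 0.1 called 7 of the 39 genes each, and 5 of the further glycolysis genes each, and 4 of these with a mean RPKM of at least 1. The members' median of -0.06 became 0.0374 with library totals and 0.0359, 0.0373 and 0.0328 in the 3 limma fits (pseudocount 1, 0.1, and 1 with the RPKM limit), which use library totals too. The genes with a changed sign did not pass the test in any of these fits. With library totals, SLC2A1 had 0.0534, PFKFB4 0.0271, SLC16A3 0.0576, PDHA1 0.0298 and EGLN1 0.0374. With limma they had 0.0472, 0.0223, 0.0557, 0.0296 and 0.0359 (pseudocount 1, with or without the limit) and 0.0480, 0.0242, 0.0561, 0.0304 and 0.0373 (0.1). With samples left out, SLC2A1 ranged from -0.0911 to 0.0602, PFKFB4 from -0.113 to 0.0158, SLC16A3 from -0.0915 to 0.0455, PDK1 from -0.0834 to 0.0866, HIF1A from -0.0637 to 0.123 and BNIP3 from -0.0271 to 0.210. The cause was not tested.

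With 3 samples a group, the exact test of a single ratio cannot pass 0.05. EGLN3, HKDC1 and PDK4 rest on at most 174 counts per sample, with SE of 0.447, 0.358 and 0.235 on the log2 scale. EGLN3 could not be fitted in the limma alternative limited to a mean RPKM of at least 1. For genes with near-identical copies, GAPDH and BNIP3 above all, the share of reads from those copies is not known.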
